A study of Acropora aff. hyacinthus sp. E JTL-2012 with 12 samples.

Results

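Fragments of the tabletop coral Acropora aff. hyacinthus were measured after a little over a year in a back-reef pool that was not their own. They are the 6 libraries, of 12 in the series, whose pool of origin differs from the pool they were transplanted into. Corals 2, 7 and 75 came from pool 300 and were sampled in pool 400, and corals 40, 68 and 70 came from pool 400 and were sampled in pool 300. The first 3 are called the fragments moved to pool 400 below, and the others the fragments moved to pool 300. Each of the 6 corals also gave a home fragment, which was transplanted within its own pool, so 4 groups of 3 exist. All were placed on August 3, 2010 and sampled in place on August 30, 2011, within 10 minutes of noon, from polyp tissue. No treatment was applied, and the corals within a group are separate animals, so the spread between them includes differences between animals.

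Pool 300 is known as the pool with the wider daily swings of water temperature, and pool 400 as the steadier one. Reef-building corals live with dinoflagellate algae inside their cells, and heat or strong light can break this partnership. Heat shock proteins keep other proteins folded under such stress, AP-1 and Myc factors switch on early response genes, and receptors of the tumor necrosis factor (TNF) family with their TRAF adaptors relay signals of immunity and cell death. Comparing the exchanged groups sets origin against habitat. A contig that follows the coral's origin keeps the sign it has at home, and a contig that follows the pool reverses it. The exchanged difference is given throughout as origin 300 in pool 400 minus origin 400 in pool 300, and the home difference as origin 300 in pool 300 minus origin 400 in pool 400.

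Values are the deposited ones, read counts per contig of an assembled transcriptome divided by a size factor of the library. They compare one contig across libraries and carry no correction for contig length. The exchanged libraries hold 557339 to 1351005 recovered reads, with the lowest total in the fragment of coral 2 moved to pool 400. The deposited size factors of the 3 fragments moved to pool 300 were between 0.998 and 1.002 times the median-ratio factors, whereas those of corals 2, 7 and 75 in pool 400 stood at 1.29, 1.19 and 0.896 times them. All columns of pool 400 are marked as adjusted in the file, so on the deposited scale pool and adjustment cannot be told apart. Median-ratio rescaling and the tests on recovered reads do not use the deposited size factors. The median exchanged difference over all contigs was -0.12 on the deposited scale and 0.03 after median-ratio rescaling, a shift that each single difference below carries. Pool and origin change together between the exchanged groups and cannot be told apart there. Likewise, fewer cells of a type cannot be told apart from less RNA per cell in such bulk samples.

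The labels of corals 40 and 68 were checked before any comparison. For corals 2, 7, 75 and 70 the library most like the exchanged fragment was the home fragment of the same coral, with Pearson r across 11903 contigs of 0.901, 0.914, 0.905 and 0.879. The fragment labelled coral 40 in pool 300 was instead nearest to the one labelled coral 68 in pool 400 (r = 0.909, against 0.842 with its own label), and that labelled coral 68 in pool 300 was nearest to coral 40 in pool 400 (r = 0.880, against 0.856). Both corals are of origin 400, so an exchange of these labels would move no library between the groups compared here. It would change which fragments are paired within corals. Contigs are not independent replicates, and these correlations are descriptions.

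**Figure D1:**
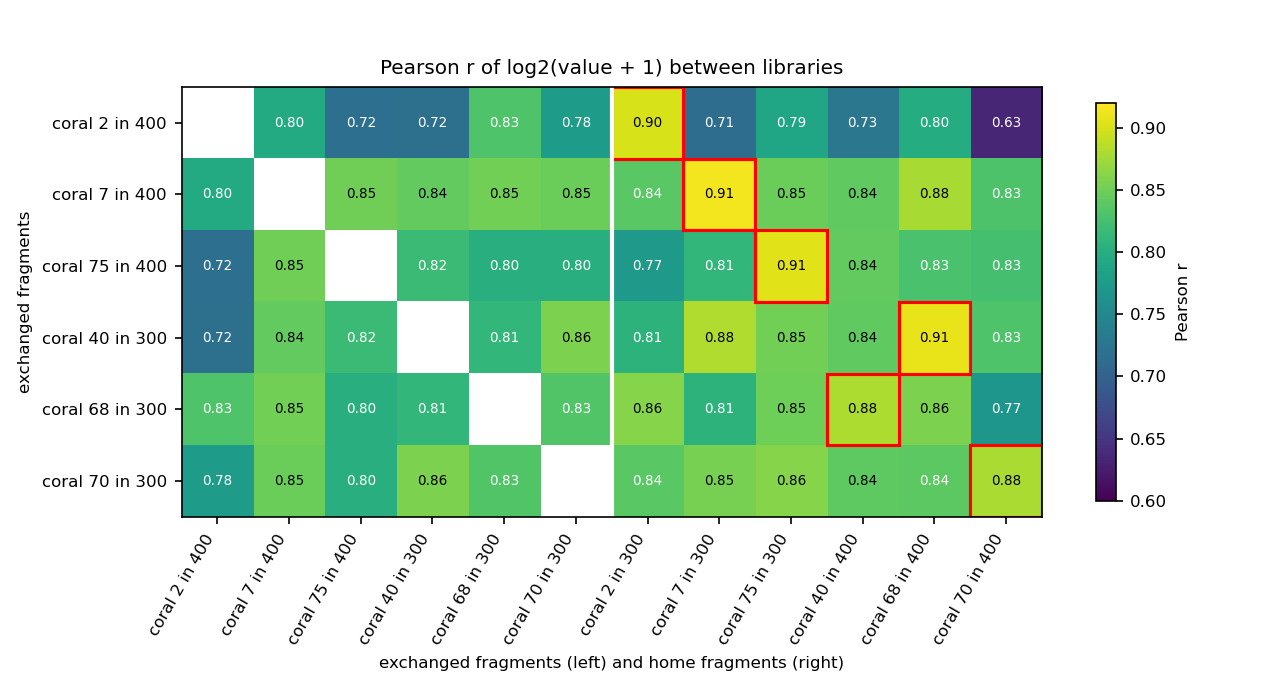
Pearson r of log2(value + 1) over 11903 contigs between the 6 exchanged fragments (rows) and all 12 libraries (columns, exchanged left of the white line and home right). The red frame marks the nearest library of each row, which is the coral's own home fragment in 4 rows and another coral's in the rows of corals 40 and 68.

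Over all contigs the exchanged groups did not stand apart from each other. Pearson r was 0.717 to 0.851 within the fragments moved to pool 400, 0.812 to 0.857 within those moved to pool 300, and 0.718 to 0.851 between the groups. The share of the spread of log2(value + 1) among the 6 libraries that lay between the groups was 18.9% (exact permutation test over the 6 libraries, one-sided, p = 0.6, where 0.1 is the smallest p the design allows). Of the 11903 contigs with a mean of at least 10, limma called 0 at an adjusted p under 0.05, or 0% (383 had an unadjusted p under 0.05, and the smallest adjusted p was 0.0515). On the recovered reads edgeR's quasi-likelihood test also called 0, with 477 at an unadjusted p under 0.05, while DESeq2 called 90, of which 74 were higher and 16 lower in the fragments moved to pool 400. A fit of all 12 libraries with the coral as a random replicate block called 5.

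With no contig past the main threshold, the contigs below are described by their values and by whether the 3 fragments of one group all lie above or below those of the other. By that measure 267 of 11903 contigs (2.24%) were higher and 587 (4.93%) lower in every fragment moved to pool 400. The balance depends on the scaling, since after median-ratio rescaling 543 were higher and 441 lower. Set beside the home fragments, 81 contigs were higher in all exchanged fragments of origin 300 in pool 400 and lower in the same 3 corals at home (67 after rescaling). The opposite pair of directions was shown by 13 (10), while 20 were higher in both (47) and 50 lower in both (56). No expected number was worked out for these patterns, so whether their sizes differ beyond the unequal totals was not tested. The exchanged and home comparisons share corals but no library.

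**Figure D2:**
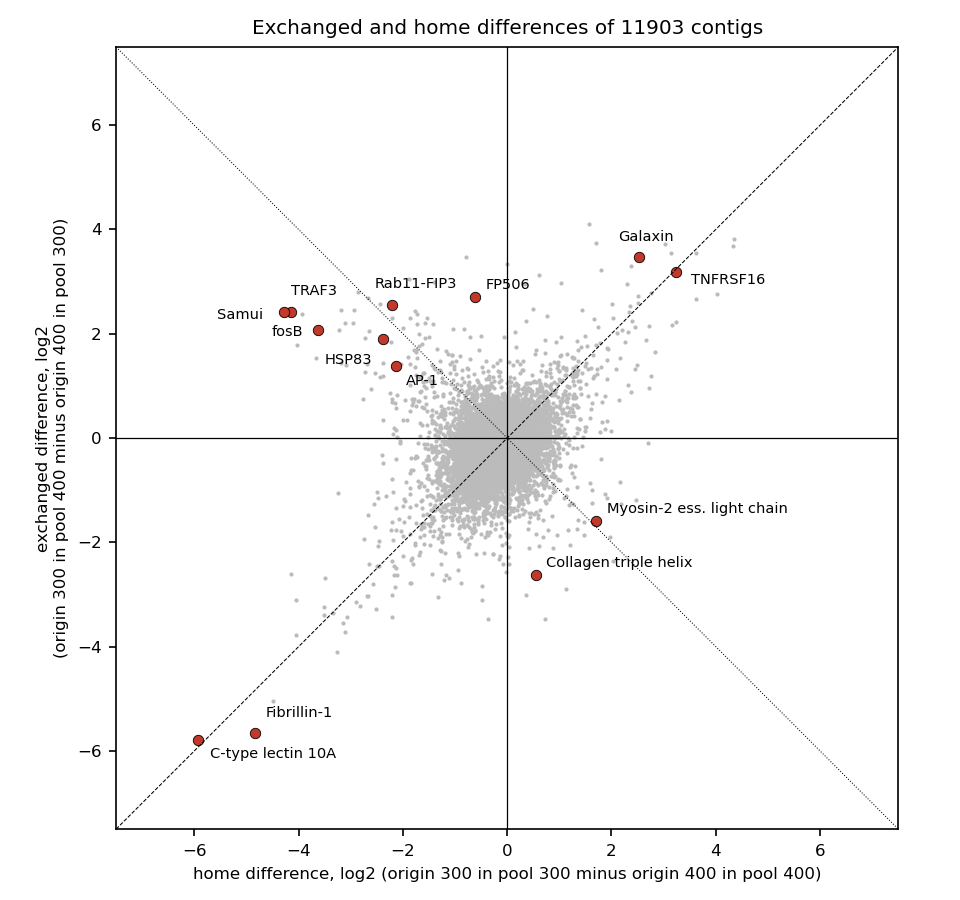
Exchanged difference (vertical, log2 scale) against home difference (horizontal, log2 scale) for 11903 contigs, each a grey point, with named contigs in red. On the dashed line a contig has the same difference in both comparisons, as TNFRSF16 does at 3.19 and 3.25, and on the dotted line it reverses, as Rab11-FIP3 does at 2.55 and -2.22.

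The contigs of smallest p that were higher in the fragments moved to pool 400 include regulators of membrane traffic, signalling and replication, and of the 10 with an informative description all but a TNF receptor had the opposite sign at home. Rab11 family-interacting protein 3 (contig188763), which links recycling vesicles to their motors, stood at 354, 204 and 422 in corals 2, 7 and 75 in pool 400, and at 45.1, 59.0 and 54.2 in corals 40, 68 and 70 in pool 300. The lowest fragment moved to pool 400 thus lay over the highest moved to pool 300. At home the order was turned round, with 39.1, 25.5 and 38.2 in corals 2, 7 and 75 and 281, 209 and 69.9 in corals 40, 68 and 70. The exchanged difference was 2.55 on the log2(value + 1) scale (SE 0.33, 95% interval 1.81 to 3.29, limma adjusted p = 0.0515) and the home difference was -2.22. Within corals, pool 300 was below pool 400 by a difference of -2.38 (SE 0.35, limma adjusted p = 0.0217), 1 of 41 contigs (0.344%) that passed in that fit of all 12 libraries. Median-ratio rescaling ended this call (limma adjusted p = 0.0911) and called 8 contigs in all. Of the 12 named contigs called in the deposited scale, 2 were also called after rescaling, and 2 with edgeR. Both times these were Steroid 17-alpha-hydroxylase/17,20 lyase and FP506, described below.

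Claspin (contig107904), which relays stalled replication to the checkpoint kinase Chk1 in vertebrates, followed the same order. It stood at 252, 177 and 261 in the fragments moved to pool 400 and at 53.3, 45.8 and 37.1 in those moved to pool 300, and the groups did not overlap. The exchanged difference was 2.31 (SE 0.30, limma adjusted p = 0.0515), and Claspin was among the 5 contigs that the fit with the random replicate block called (limma adjusted p = 0.0495). It was not among the 4 called with corals 40 and 68 exchanged in that block, and did not pass when rescaled (limma adjusted p = 0.232). Ras-related protein Rab-30 (contig130463), a small GTPase of the Golgi, was at 293, 219 and 358 against 34.0, 69.8 and 55.2. Its exchanged difference was 2.46 (SE 0.34, limma adjusted p = 0.0694), beside a home difference of -3.18 in which corals 2, 7 and 75 lay between 12.5 and 20.3. TRAF-type zinc finger domain-containing protein 1 (contig172535), a feedback regulator of innate immunity in mammals, was at 361, 326 and 435 against 44.0, 98.7 and 42.8, with a difference of 2.68 (SE 0.36, limma adjusted p = 0.0572). Its home groups overlapped, since coral 70 in pool 400 was at 51.2 and coral 75 in pool 300 at 54.3.

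Serine/threonine-protein kinase SIK2 (contig82681), a kinase of the salt-inducible family, stood at 672, 454 and 694 in the fragments moved to pool 400 and at 135, 196 and 237 in those moved to pool 300, a difference of 1.69 (SE 0.29, limma adjusted p = 0.143). Interferon regulatory factor 2-binding protein 1 (contig155851), a transcriptional corepressor in mammals, was at 532, 471 and 643 against 185, 236 and 212. Both were opposite at home, at -1.75 and -1.78. Reversal at home was not shared by every contig of small p. Uncharacterized protein RSN1 (contig69137), named after its values were seen because it had the smallest p of all, was at 62.9, 85.4 and 89.8 in the fragments moved to pool 400. In the other 9 libraries it lay between 3.31 and 17.4, so it was high only in corals of origin 300 in pool 400, with an exchanged difference of 3.13 (SE 0.39, limma adjusted p = 0.0515) and a home difference of 0.60.

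**Figure D3:**
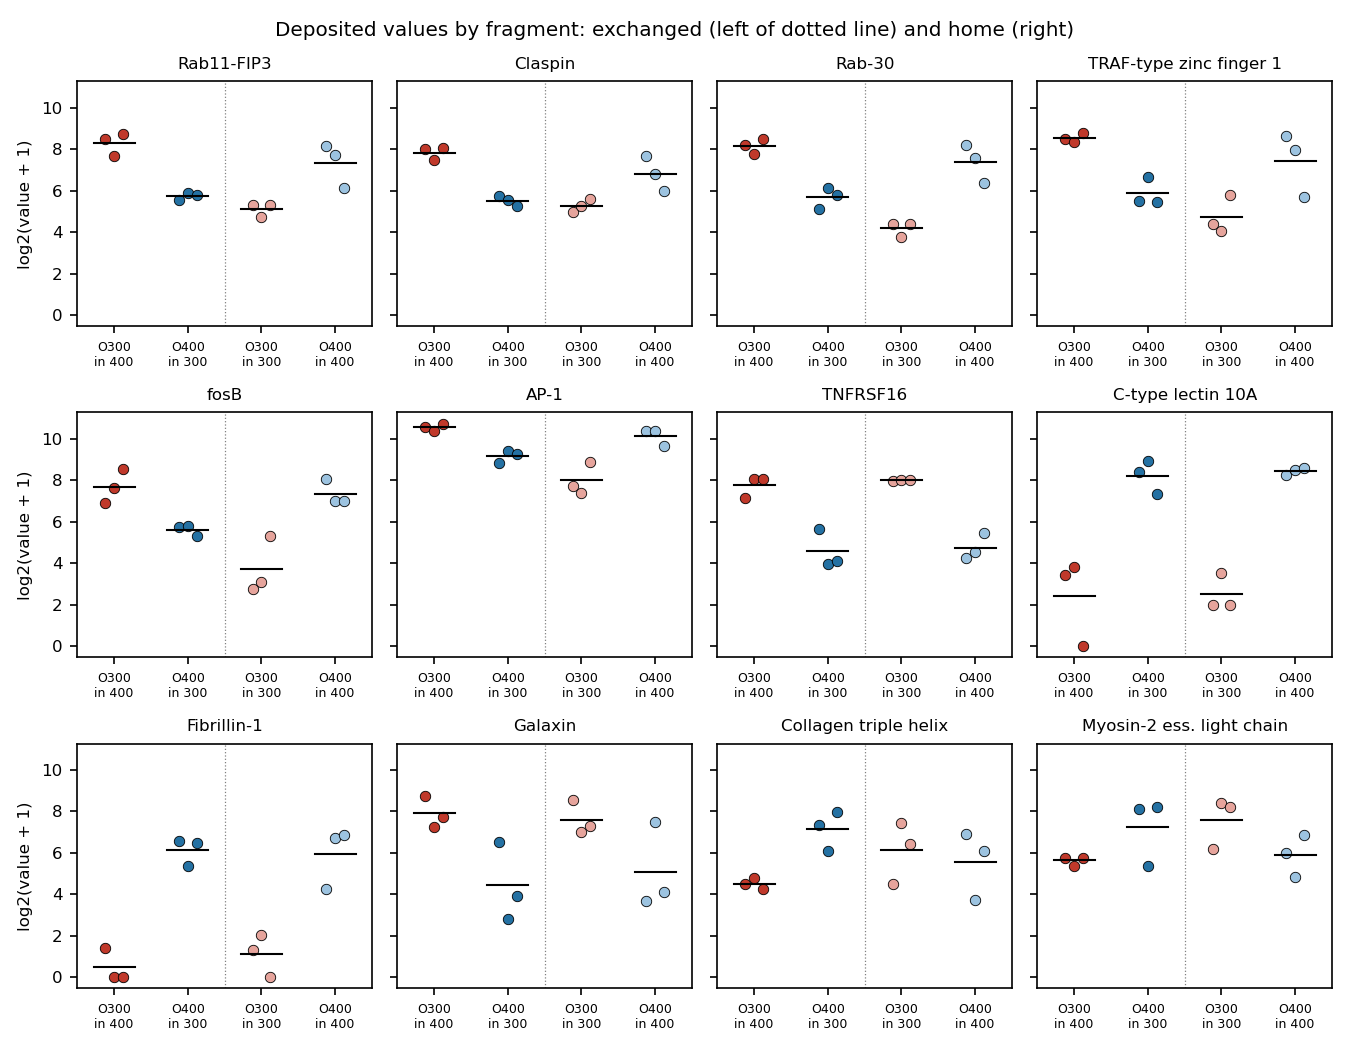
Deposited values of 12 contigs as log2(value + 1), 1 point per fragment and a bar at the mean of each group of 3, with exchanged groups left and home groups right of the dotted line (O300 and O400 mark the pool of origin). Rab11-FIP3, Claspin, Rab-30, TRAF-type zinc finger 1, fosB and AP-1 have the higher group means in both groups that lived in pool 400. The home fragment of coral 70 in pool 400 lay only a little above the pool 300 fragments in Rab11-FIP3 (69.9), Claspin (61.6) and Rab-30 (80.3). In TRAF-type zinc finger 1 (51.2) it lay among them. TNFRSF16, C-type lectin 10A and Fibrillin-1 keep the level of their origin in both pools.

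Some early response transcription factors separated the groups. Of 25 members tested in the list of AP-1, Myc and other immediate early regulators, 4 (16.0%) were higher in every fragment moved to pool 400 and 1 lower. These stand beside 2.24% and 4.93% of all contigs, and 0 passed the adjusted threshold. After rescaling 4 (16.0%) and 1 were again counted, beside 4.56% and 3.70% of all contigs. The median member differed by -0.10, close to the median of all contigs, so the list as a whole did not stand higher. Protein fosB (contig182044), a subunit of AP-1, stood at 119, 196 and 365 in the fragments moved to pool 400 and at 52.8, 54.2 and 38.1 in those moved to pool 300. At home the same corals of origin 300 were at 5.79, 7.47 and 38.2, the first of which is worth 4 reads, and the corals of origin 400 at 263, 126 and 127. The exchanged difference of fosB was 2.08 (SE 0.41, limma adjusted p = 0.284), and within corals it was lower in pool 300 by a difference of -2.85 (SE 0.41, limma adjusted p = 0.0205).

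Transcription factor AP-1 (contig211469), the partner of Fos proteins, was at 1507, 1309 and 1686 against 458, 677 and 614 (difference 1.37, SE 0.22, limma adjusted p = 0.113). Myc proto-oncogene protein (contig139133), a regulator of growth, was at 185, 171 and 219 against a narrow 83.2, 86.7 and 82.8 (difference 1.17, SE 0.26, limma adjusted p = 0.399). Early growth response protein 1 (contig68383), a zinc finger factor named after its values were seen, was at 1755, 1398 and 1822 against 811, 1201 and 998. All 4 contigs were lower in corals 2, 7 and 75 at home than in corals 40, 68 and 70 at home, with home differences of -3.63, -2.14, -1.66 and -1.97. For these factors the fragments moved to pool 300 lay below all 3 home fragments in pool 400, and above those of corals 2 and 7 in pool 300.

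Heat shock proteins and chaperones held the largest number of members with non-overlapping groups in the direction of the fragments moved to pool 400. Of 125 contigs in the list, 101 were tested, and 14 (13.9%) were higher in every fragment moved to pool 400 and 3 (2.97%) lower. Over all contigs 2.24% and 4.93% were. After rescaling 18 (17.8%) and 3 (2.97%) were, beside 4.56% and 3.70% of all contigs. None of the 101 passed the adjusted threshold and 13 had an unadjusted p under 0.05. The median difference over all 101 was -0.08, beside -0.12 for all contigs. These 14 were taken for their values and are described below without a test, and 1 of them, a bacterial-type Chaperone protein DnaJ (contig205996), was also higher in the same corals at home. Without corals 40 and 68, whose labels are in doubt, 21 members were higher, as fewer libraries are easier to separate.

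Cofactors of Hsp70 had the smallest p values in the list. BAG domain-containing protein Samui (contig600116), named after an insect protein, was at 156, 293 and 336 in the fragments moved to pool 400 and at 38.7, 39.7 and 62.8 in those moved to pool 300. It differed by 2.41 (SE 0.37, limma adjusted p = 0.104), and at home corals 2, 7 and 75 were at 4.34, 3.74 and 25.1. DnaJ protein homolog 1 (contig169202), which stimulates the ATPase of Hsp70, was at 498, 546 and 636 against 180.0, 218 and 236, a difference of 1.40 (SE 0.23, limma adjusted p = 0.12). Neither pair of groups overlapped. DnaJ homolog subfamily B member 5 labels 5 of the 14 contigs, and several contigs can be pieces of one transcript or copies of a gene.

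Among the chaperones themselves, the groups did not overlap for 3 contigs of Hsp-16.1/Hsp-16.11, a small chaperone that binds unfolding proteins. The most abundant, contig165011, was at 61.3, 68.9 and 86.6 against 17.6, 13.2 and 21.9 (difference 1.99, SE 0.36, limma adjusted p = 0.17). Heat shock protein 68 (contig187488), of the Hsp70 family, was at 51.3, 149.97 and 221 against 31.7, 8.43 and 26.6. Heat shock protein 83 (contig215125), of the Hsp90 family, was at 13.2, 52.3 and 46.5 against 10.6, 6.02 and 7.61, where coral 2 lay only a little above coral 40. At 1.66 units a read, the value of coral 2 rests on 8 reads. Heat shock factor protein 1 (contig145533), which switches heat shock genes on, was at 527, 401 and 937 against 199.9, 246 and 192. Heat shock protein 68 and this factor lie outside the rule for named contigs and were named after their values were seen. Within corals Hsp-16.1/Hsp-16.11 contig165011 and Heat shock protein 83 were lower in pool 300 by differences of -1.84 (limma adjusted p = 0.0217) and -2.14 (limma adjusted p = 0.0337), and these were the 2 of the 101 members that passed in that fit. The 3 members lower in every fragment moved to pool 400 were a Small heat shock protein (contig71477), Heat shock 70 kDa protein 12A and DnaJ homolog subfamily B member 6-B, and they did so by 0.35 to 0.85.

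**Figure D4:**
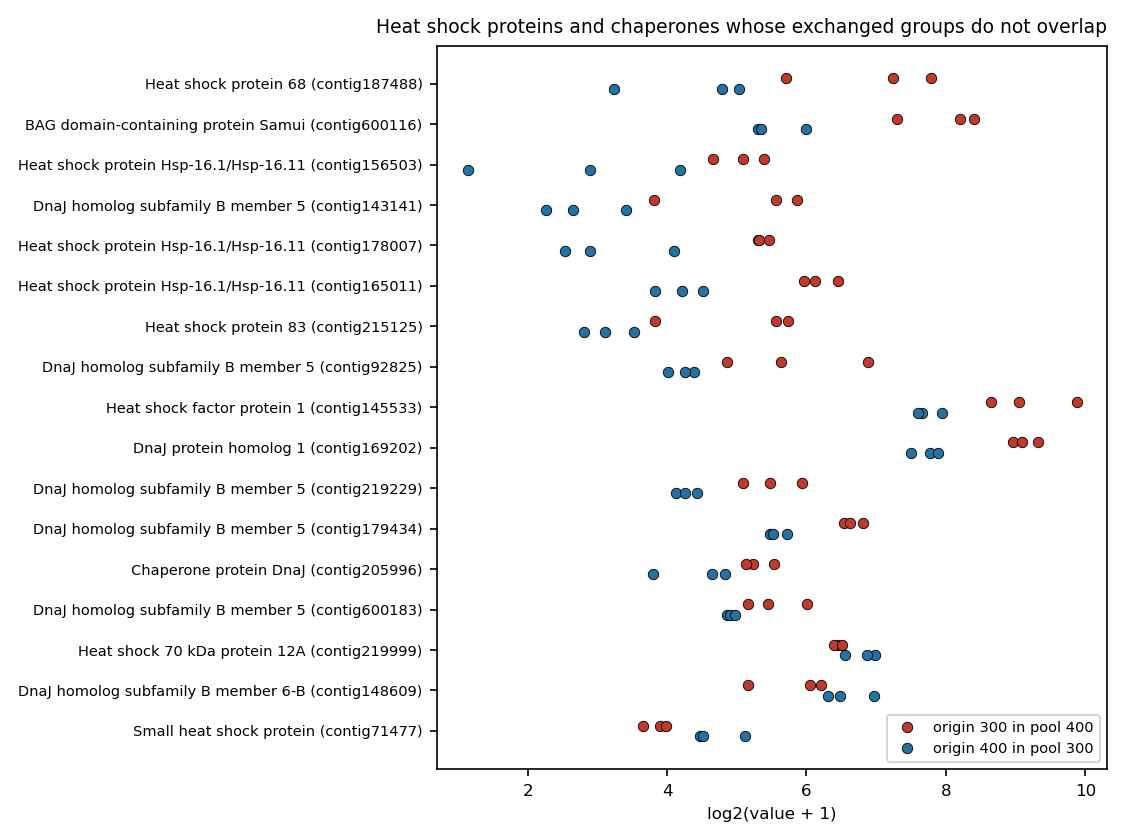
Values of the 17 heat shock and chaperone contigs whose exchanged groups do not overlap, as log2(value + 1), with the 3 fragments moved to pool 400 in red and the 3 moved to pool 300 in blue. The 14 upper rows have red above blue, from Heat shock protein 68 at a difference of 2.56 down to a DnaJ homolog, and the 3 lower rows have blue above red.

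The TNF and apoptosis list held contigs of both kinds, those that followed the pool and those that followed the origin. Of 90 members tested, 7 (7.78%) were higher in every fragment moved to pool 400 and 3 (3.33%) lower, beside 2.24% and 4.93% of all contigs. After rescaling 9 (10.0%) and 3 were, beside 4.56% and 3.70% of all contigs. The adaptor TRAF3 (TNF receptor-associated factor 3, contig180146) was at 126, 222 and 615 against 29.9, 32.5 and 108, so coral 70 in pool 300 came near coral 2 in pool 400. Its exchanged difference was 2.42 (SE 0.63, limma adjusted p = 0.651) and its home difference was -4.15, and within corals it was lower in pool 300 by a difference of -3.28 (SE 0.56, limma adjusted p = 0.0458). Apoptosis regulator R1 (contig179313), a protein of the Bcl-2 family, was at 437, 276 and 452 against 123, 202 and 186.

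In this list 3 receptor contigs kept the order of origin in both pools. The one called TNFRSF16 here (Tumor necrosis factor receptor superfamily member 16, contig176696), named for a neurotrophin receptor of vertebrates, was at 139, 264 and 267 in the fragments moved to pool 400 and at 48.7, 14.5 and 16.2 in those moved to pool 300. At home the values were 246, 255 and 257 in corals 2, 7 and 75 and 18.2, 22.0 and 42.2 in corals 40, 68 and 70, so a year in the other pool left each coral on its own side. The exchanged difference was 3.19 (SE 0.49, limma adjusted p = 0.104) and the home difference 3.25. The fit of 12 libraries with the random replicate block called this exchanged difference (limma adjusted p = 0.0389, 0.0215 with corals 40 and 68 exchanged, and 0.0273 rescaled). On coral means, origin 300 was higher by 3.22 (SE 0.29, limma adjusted p = 0.00274), and this was 1 of 4 contigs (0.0336%) past the threshold, and it also passed after rescaling (limma adjusted p = 0.0169) and with edgeR (adjusted p = 0.0438). Another contig of the same description (contig177460) was at 24.8, 51.4 and 49.6 against 15.8, 9.63 and 9.51. One described as member 16 all (contig205657) was at 460.3, 550.2 and 699 against 379, 290.2 and 388, and both, named after their values were seen, kept their order at home.

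Of 116 lectins and innate immune proteins tested, 5 (4.31%) were higher in every fragment moved to pool 400 and 4 (3.45%) lower. Over all contigs 2.24% and 4.93% were. After rescaling 8 (6.90%) and 4 (3.45%) were, beside 4.56% and 3.70% of all contigs. The largest exchanged difference of all, -5.79 (SE 0.90, limma adjusted p = 0.107), belonged to contig71140, described as the sugar-binding receptor C-type lectin domain family 10 member A. It was at 9.94, 13.1 and 0 in the fragments moved to pool 400 and at 334, 476 and 161 in those moved to pool 300, and at 2.9, 10.6 and 3.02 against 299, 362 and 380.2 at home. On coral means the origin difference was -5.86 (SE 0.56, limma adjusted p = 0.00274), which did not pass after rescaling (limma adjusted p = 0.0981) or with edgeR (adjusted p = 0.0611). The random replicate block called its exchanged difference (limma adjusted p = 0.0389, and 0.0215 with corals 40 and 68 exchanged), but not when rescaled. A contig described only as Lectin (contig186685) was at 189, 14.0 and 86.6 against 9.96, 7.23 and 8.56, and here the spread lay among the corals of origin 300. Coral 7 was low and corals 2 and 75 high in both pools, at 13.1, 194 and 119.7 at home.

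Large exchanged differences with the same sign at home were also found for a matrix protein and a skeletal protein. Fibrillin-1 (contig218313), a protein of extracellular microfibrils, was at 1.66, 0 and 0 in the fragments moved to pool 400, a single read in all, and at 94.4, 39.7 and 88.5 in those moved to pool 300. The ratio was 216, with an exact counting interval of 38.4 to 8554, and the home groups stood at up to 3.11 against 18.2, 104 and 114. Its fitted exchanged difference was -5.67 (SE 0.71, limma adjusted p = 0.0515), which depends on the pseudocount and was called with the random replicate block (limma adjusted p = 0.0389, 0.0215 with corals 40 and 68 exchanged, and 0.0484 rescaled). Its origin difference passed (limma adjusted p = 0.00873), but not after rescaling (limma adjusted p = 0.0539) or without coral 40, 68 or 70 (limma adjusted p = 0.232, 0.11 and 0.169). Galaxin (contig184232), which was first isolated from a coral skeleton, was at 419, 152 and 206 against 90.9, 6.02 and 14.3 (difference 3.47, SE 0.82, limma adjusted p = 0.483). Among corals of origin 400 galaxin was high in the library labelled coral 40 in pool 300 (90.9) and in that labelled coral 68 in pool 400 (176), and at 6.02 to 15.9 in the other 4. A second Galaxin contig (contig600046) split these libraries alike, with 87.9 and 153 against 4.82 to 24.8. Of 40 calcification members tested, 1 (2.50%) was higher in every fragment moved to pool 400 and 1 lower, beside 2.24% and 4.93% of all contigs.

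The remaining origin call was a Putative uncharacterized protein (contig58852), named after its values were seen, at 0, 2.62 and 1.06 against 70.3, 65.0 and 55.2 (origin difference -4.77, SE 0.65, limma adjusted p = 0.0418). It was not called after rescaling, where TNFRSF16 was the only origin call, or with corals 40 and 68 exchanged. With 1 group near 0 the fitted size depends on the pseudocount. Its exchanged difference was -5.04, and -3.48 with a pseudocount of 5. Several other contigs of low count had the same sign in the exchanged and home comparisons. Major vault protein (contig219416), the shell of vault particles, was at 4.97, 2.62 and 1.06 against 15.8, 26.5 and 20.9. Netrin receptor UNC5D (contig185416), an axon guidance receptor, was at 0, 0.872 and 21.1 against 73.3, 31.3 and 43.8. Muscle M-line assembly protein unc-89 (contig155131) was at 0, 3.49 and 3.17 against 51.0, 45.8 and 8.56, where coral 70 lay far below its group in pool 300 and again at home (4.85). None of these 3 passed the origin test on coral means.

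Collagen triple helix repeat-containing protein 1, a secreted protein of tissue repair in mammals, was lower on average in the fragments moved to pool 400. Its contig74044 was at 21.5, 26.2 and 18.0 against 159, 67.4 and 247 (difference -2.63, SE 0.47, limma adjusted p = 0.17). Its contig147987 was at 21.5, 28.8 and 50.7 against 299.5, 47.0 and 363, and the groups overlapped on the deposited scale (limma adjusted p = 0.806). At home both contigs varied widely within each group, with coral 7 at 173 and 295 and coral 2 at 21.7 and 7.24. Of 175 matrix members tested, 4 (2.29%) were higher in every fragment moved to pool 400 and 6 (3.43%) lower, near the 2.24% and 4.93% of all contigs. Transcription factor HES-1 (contig168077), a target of Notch signalling, was lower in each fragment moved to pool 400, at 34.8, 55.8 and 42.2 against 109, 87.9 and 103. Nipped-B like b (contig149110), named for a cohesin loader, was at 8.28, 17.4 and 28.5 against 69.2, 56.6 and 61.8 (limma adjusted p = 0.499).

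Enzymes that oxidize small molecules included 2 contigs that were high in pool 400 in both comparisons. Steroid 17-alpha-hydroxylase/17,20 lyase (contig145436), a cytochrome P450 of steroid synthesis in vertebrates, was at 527, 412 and 579 against 63.3, 190.3 and 106. It differed by 2.20 (SE 0.38, limma adjusted p = 0.15) between the exchanged groups and by -1.81 (SE 0.19, limma adjusted p = 0.00703) between pools within corals. Cytochrome P450 3A24 (contig140774) was at 96.0, 124 and 258 against 66.2, 59.0 and 39.0, with a difference of -1.65 between pools within corals (limma adjusted p = 0.0205). Of 42 members tested these were the 2 (4.76%) higher in every fragment moved to pool 400, beside 2.24% of all contigs. After rescaling 4 (9.52%) were higher, beside 4.56% of all contigs. Matrix metalloproteinase-24 (contig44450), a membrane protease, was at 626, 734 and 939 against 338, 417 and 513. In its list of 47 members 3 (6.38%) were higher and 2 (4.26%) lower, beside 2.24% and 4.93% of all contigs. After rescaling 2 (4.26%) were higher and 2 (4.26%) lower, near the 4.56% and 3.70% of all contigs.

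Fluorescent proteins, pigments of coral tissue, varied widely between corals of a group. GFP-like fluorescent chromoprotein FP506 (contig152508) was at 609, 616 and 412 in the fragments moved to pool 400 and at 21.1, 299 and 84.7 in those moved to pool 300. Among corals of origin 400 the fragment labelled coral 68 was the highest and coral 40 the lowest in both pools, with 610.4 and 59.5 at home, unlike galaxin. Within corals FP506 was lower in pool 300 by a difference of -1.66 (SE 0.17, limma adjusted p = 0.00703), which was lost with the pool 400 labels of corals 40 and 68 exchanged (limma adjusted p = 0.805). A contig of amFP486 (contig151799) was at 598, 341 and 219 against 51.6, 254 and 115, and its groups overlapped. Of 10 members tested, 1 (10.0%) was higher in every fragment moved to pool 400, beside 2.24% of all contigs.

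Proteins of the ribosome and of respiration lay mostly above the median of all contigs, with no member past the threshold. Of 42 cytosolic ribosomal proteins, 37 (88.1%) lay above the median of all contigs, the median member by 0.30, but in 0 did the groups fail to overlap. In the home comparison the median member lay 0.23 above that of all contigs. Of 64 members of oxidative phosphorylation, 53 (82.8%) lay above the median of all contigs, by 0.20 at the median, and 0.12 at home. Members of oxidative phosphorylation ranged from -0.97 to 2.59. Beside 2.24% and 4.93% of all contigs, 1 member (1.56%) was higher and 1 (1.56%) lower in every fragment moved to pool 400. These, named after their values were seen, were subunits of succinate dehydrogenase, the iron-sulfur one (contig188780) higher and the flavoprotein (contig98299) lower. The summed ribosomal values ran from 6818 to 12426 in the fragments moved to pool 400 and from 5686 to 9488 in those moved to pool 300, so the groups overlapped. Coral 2, the shallowest library, is among those fragments, and the part of depth in this was not tested.

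Protein turnover was near the background. Of 253 ubiquitin and proteasome contigs, 2 (0.791%) were higher in every fragment moved to pool 400 and 15 (5.93%) lower, where 2.24% and 4.93% of all contigs were. After rescaling these were 7 (2.77%) and 8 (3.16%), beside 4.56% and 3.70% of all contigs. Its median member differed by -0.12, the same as that of all contigs. E3 ubiquitin-protein ligase MIB2 (contig150387), a regulator of Notch signalling, was the member of smallest p, at 0, 5.23 and 0 against 16.4, 15.7 and 11.4. Ion channels had 2 of 60 (3.33%) higher and 6 (10.0%) lower, beside 2.24% and 4.93% of all contigs, and 4 (6.67%) and 7 (11.7%) after rescaling, beside 4.56% and 3.70%. Among the latter, Calcium-activated potassium channel subunit beta-4 (contig203882) was at 39.7, 77.6 and 105 against 123, 154 and 149, and differed at home as well, by -1.01.

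**Figure D5:**
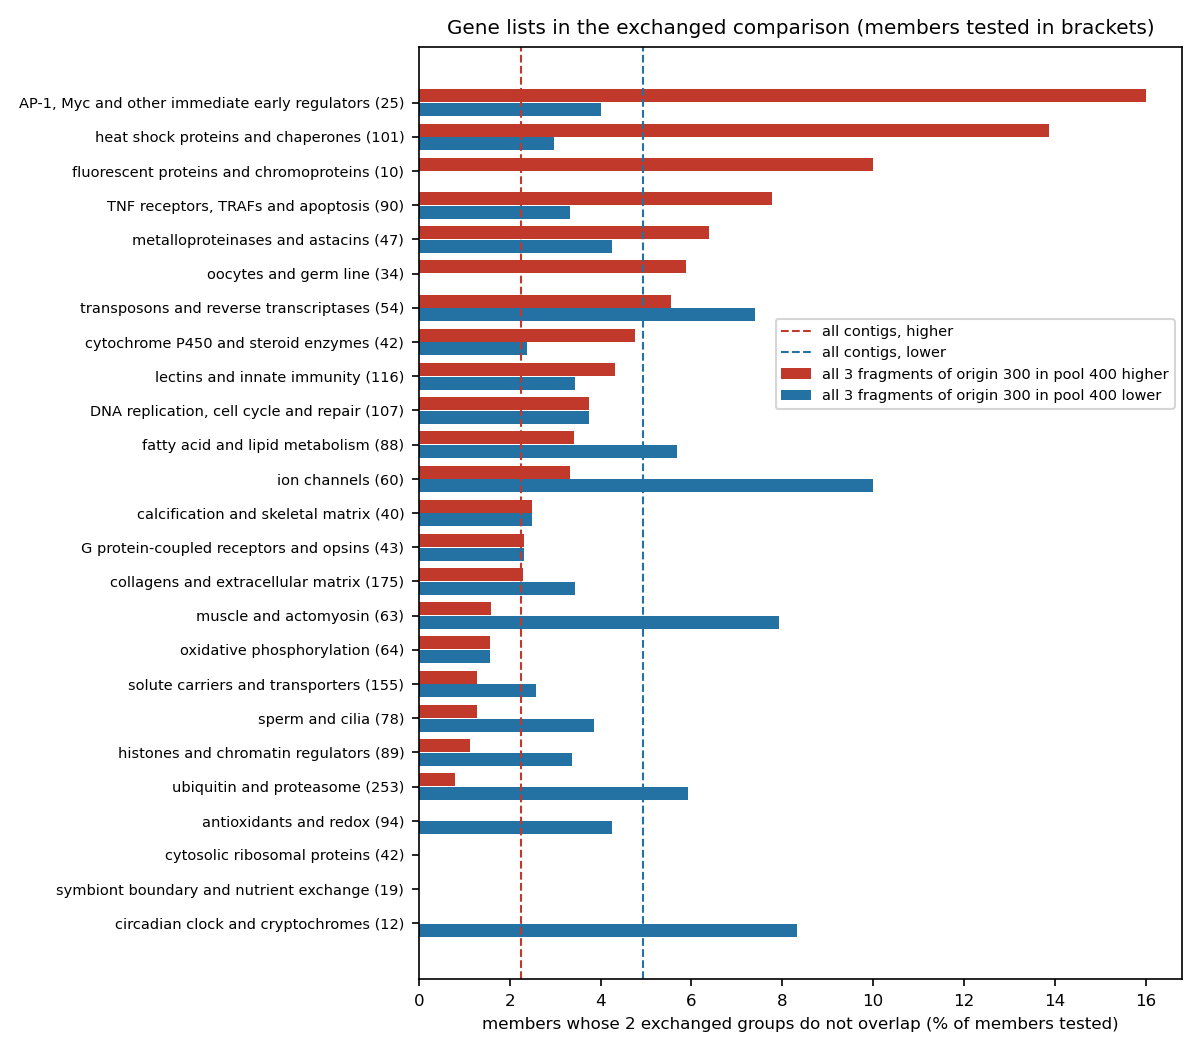
Share of the members tested in each gene list with at least 10 of them (horizontal axis, %) whose 2 exchanged groups do not overlap, red where every fragment moved to pool 400 was higher and blue where every one was lower, with dashed lines at 2.24% and 4.93% for all contigs. Immediate early regulators (16.0% of 25) and heat shock proteins and chaperones (13.9% of 101) have the longest red bars, and ion channels (10.0% of 60) the longest blue bar.

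The other lists are given against the same 2.24% higher and 4.93% lower of all contigs. Antioxidants had 0 of 94 higher and 4 (4.26%) lower, solute carriers 2 of 155 higher and 4 lower, and G protein-coupled receptors 1 of 43 in each direction. DNA replication and repair had 4 of 107 in each direction, with Claspin first, and histones and chromatin regulators 1 of 89 higher and 3 lower. Lipid metabolism had 3 of 88 (3.41%) higher and 5 (5.68%) lower, transposons 3 of 54 (5.56%) higher and 4 (7.41%) lower, and the clock list 0 of 12 higher and 1 lower. After rescaling 2 antioxidants were higher and 1 lower, beside 6 and 3 solute carriers and 3 and 0 G protein-coupled receptors. Replication and repair had 5 and 5, and histones and chromatin regulators 3 and 2. Lipid metabolism had 7 (7.95%) and 4 (4.55%), transposons 3 and 3, and the clock list 0 and 0. Over all contigs 4.56% and 3.70% were. None of the 19 members at the symbiont boundary, which move sterols, ammonium and sugars between host and alga, separated the groups. The 95% interval of the exchanged difference of Ammonium transporter Rh type C-like 2 (contig203542), for example, ran from -1.07 to 0.28.

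Markers of other cell types were set beside these results. Summed values of 63 muscle and actomyosin contigs ran from 8031 to 10160.3 in the fragments moved to pool 400. In those moved to pool 300 they ran from 8517 to 9662. Of these contigs 1 (1.59%) was higher in every fragment moved to pool 400 and 5 (7.94%) lower, beside 2.24% and 4.93% of all contigs. After rescaling 3 (4.76%) and 1 (1.59%) were, beside 4.56% and 3.70% of all contigs. Myosin-2 essential light chain (contig202421) was at 53.0, 40.1 and 52.8 against 274, 39.7 and 291, so its groups overlapped, and Tropomyosin-2 (contig112464) at 53.0, 44.5 and 61.3 against 85.0, 72.3 and 111. Sums over 78 contigs of sperm and cilia (4235 to 5202 against 4478 to 4814), 34 of oocytes and germ line (2264 to 3491 against 2303 to 3184) and 7 of cnidocytes (146 to 223 against 151 to 202) overlapped between the groups. Their members higher and lower in every fragment moved to pool 400 stand beside the same shares of all contigs. For sperm and cilia they were 1 (1.28%) and 3 (3.85%), and 7 (8.97%) and 3 (3.85%) after rescaling. In both scalings they were 2 (5.88%) and 0 for the germ line, and 1 (14.3%) and 0 for cnidocytes. The cnidocyte member, Toxin PsTX-60B (contig182591), named after its values were seen, was also higher at home. No listed marker was at 0 in all 6 exchanged libraries, and the part of these cells in the results was not tested. Contigs of galaxin and fluorescent proteins were read in every exchanged library, but such reads cannot tell which tissue was sampled. The polyp label was not tested.

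The algae were represented by 2 contigs. Photosystem Q(B) protein (contig217061) was at 28.1, 57.5 and 69.7 against 42.8, 86.7 and 62.8, and its groups overlapped. Photosystem II CP47 chlorophyll apoprotein (contig194637) was at 24.8, 37.5 and 51.8 against 0.586, 0 and 13.3, with the home fragments of origin 300 at 30.4, 28.0 and 25.1 and those of origin 400 at 0, 1.37 and 17.3. CP47 thus had the same order in both pools, and coral 70 was the only coral of origin 400 above 1.37 in either pool. One contig was matched as bacterial.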

How the data were processed

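RNA of 12 libraries was measured with TruSeq kits, 12 to a lane, per the labels' protocols. The deposited table gives 16980 contigs, of which 4387 have no description. The deposited unit is a signal: each value is a whole number of reads times a constant of its library, which was used to recover the reads. Within 0.01 of a whole number lay every value of 11 libraries, and all but 1 of the remaining library. The submitters' processing notes list BWA and DESeq without saying what each did, and how the pool 400 columns were adjusted was not given in the sources used here. Another 9 columns of group means, SDs and ratios were not used here. No genome or sequence was used, so contigs have no position.

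Tests used limma 3.58.1 in R 4.3.3 on log2(value + 1) of contigs whose mean over 12 libraries reached 10 (variance trend, Benjamini-Hochberg adjusted p under 0.05), so folds of low contigs are understated. The exchanged difference was fitted on the 6 exchanged libraries, pool (300 minus 400) on 12 libraries with coral as a blocking term, because the labels give both fragments of a pair the same coral number, and origin (300 minus 400) on coral means. Alternatives included edgeR 4.0.16 and DESeq2 1.42.0 on the recovered reads, a normalization by median ratios, other pseudocounts (0.5 and 5) and minimum means (5, 50 and none), and each library left out. The scripts that fit the models were tested on simulated data. Named contigs were the 10 of smallest p in each direction with an informative description, up to 3 of smallest p in each gene list, and 13 taken from an earlier account of the series. Gene lists are word patterns in the descriptions, and the members and lists were chosen with earlier results of these data known. Patterns that matched inside unrelated words were corrected after the matches were seen. Depth ran from 557339 to 1643526 reads a library, counting intervals cover counting error only, and 3 corals a group limit the precision.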

Additional observations from a re-analysis of the deposited data

Results flagged for a closer look

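The exchanged and home differences of 12 named contigs differed from each other by a test within corals (limma with the coral as a block, adjusted p under 0.05). Each value here is the exchanged minus the home difference on the log2 scale, which is fixed by the pool effect within corals, and all 12 are positive. The signalling and immune contigs were TNF receptor-associated factor 3 (contig180146) at 6.57 and Interferon regulatory factor 2-binding protein 1 (contig155851) at 3.14. Protein fosB (contig182044) stood at 5.71 and Transcription factor AP-1 (contig211469) at 3.51. The vesicle traffic contigs were Rab11-FIP3 (contig188763) at 4.77 and Rab-30 (contig130463) at 5.64. The chaperones were Heat shock protein 83 (contig215125) at 4.28 and Hsp-16.1/Hsp-16.11 (contig165011) at 3.68, and Claspin (contig107904) was at 3.85. Steroid 17-alpha-hydroxylase/17,20 lyase (contig145436) was at 3.61, Cytochrome P450 3A24 (contig140774) at 3.29 and GFP-like fluorescent chromoprotein FP506 (contig152508) at 3.32. After median-ratio rescaling, and likewise with edgeR on the recovered reads, 2 of the 12 passed, Steroid 17-alpha-hydroxylase/17,20 lyase (adjusted p = 0.0295 and 0.0228) and FP506 (adjusted p = 0.0167 and 0.0134). Without the block of corals FP506 (limma adjusted p = 0.868) and Heat shock protein 83 (limma adjusted p = 0.0593) did not pass.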

How the results depend on the processing

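The count of exchanged contigs past the threshold was 0 and stayed 0 with edgeR, median-ratio rescaling, a pseudocount of 0.5, minimum means of 5 or none, and without corals 40 and 68 together. It was 90 with DESeq2, 6 with quantile normalization, 8 with a pseudocount of 5, 5 with a minimum mean of 50 and 5 with a robust variance. The random replicate block over 12 libraries gave 5, 4 with corals 40 and 68 exchanged, and 3 when rescaled, a setting chosen after seeing the data. Leaving out 1 library gave 0 to 12, with 12 without coral 2 and 1 each without coral 40 or 68. The 41 pool calls within corals became 8 with rescaling, 8 with edgeR and 63 with corals 40 and 68 exchanged. They were 38 with no replicate block, and 4 to 74 with a coral left out (5 without coral 2, 7 or 40, 4 without 75, and 74 without 70). The 4 origin calls became 1 with rescaling and 2 to 12 with a coral left out (12, 11 and 7 without corals 2, 7 and 75, and 2 without coral 40). The share of spread between the groups, 18.9%, ran from 18.9% to 32.4% with a library left out, the highest without coral 75, then 26.4% without coral 2 and 24.7% without coral 68. Contigs higher in all fragments moved to pool 400 numbered 267, and 543 rescaled. With a library left out there were 372 to 847, and 1497 without corals 40 and 68. Those lower numbered 587, and 835 to 2529 and 2599 in the same settings. Such counts grow by construction when fewer libraries have to separate. Heat shock members higher in all fragments were 14 to 21 with a library left out. Of 93 named contigs, 92 kept the direction of the exchanged difference in every alternative that tested them, which was 20 or, for contigs under the minimum mean of 50, 19, and Photosystem Q(B) protein (contig217061) reversed to 0.040 without coral 2, in a range of -0.60 to 0.040 with a library left out. In some alternative 28 named contigs were called.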

Other observations

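Some contigs were close to absent in one exchanged group. With at most 3 reads in all over the 3 fragments of one group and at least 5 in each fragment of the other, 15 contigs were close to absent in the fragments moved to pool 400 and 2 in those moved to pool 300, where the home groups gave 8 and 4. The fragments moved to pool 400 include the shallowest library, and these contigs were chosen by their values. Of the 15, 11 have an informative description and 6 had at most 3 reads in the same corals at home. Myosin-2 heavy chain (contig65950) had 1 read in the fragments moved to pool 400 and 43 in those moved to pool 300. The ratio was 32.3, with an exact counting interval of 5.5 to 1307. At home it had 0 reads in corals 2, 7 and 75 against 12, 8 and 20 in corals 40, 68 and 70. Deleted in malignant brain tumors 1 protein (contig182908), a scavenger receptor of mucosal immunity in mammals, had 2 reads against 54, but 29 in the same corals at home. Tachykinin-like peptides receptor 99D (contig153482), a neuropeptide receptor, had 3 reads against 35, and at home 16 in corals 2, 7 and 75 and 5 in the others.

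Coral 70 differed from the other corals of origin 400 at home. In pool 400 its Rab11 family-interacting protein 3 (contig188763) was at 69.9 beside 281 and 209, its BAG domain-containing protein Samui (contig600116) at 73.4 beside 297 and 217, and its DnaJ protein homolog 1 (contig169202) at 276 beside 598 and 521. Its deposited size factor there stood at 0.641 of the median-ratio factor, beside 1.167 and 1.035 for corals 40 and 68. Values are divided by this factor, so the deposited values of coral 70 there are higher than its rescaled ones. In the exchanged fragments coral 70 lay within its group for Rab11 family-interacting protein 3, at 54.2 beside 45.1 and 59.0. There it was the highest of its group for Samui, at 62.8 beside 38.7 and 39.7, and for DnaJ protein homolog 1, at 236 beside 180.0 and 218. By the labels, the C2 domain protein of contig182707 was higher in each coral's exchanged fragment than in its home fragment. It was at 258, 114 and 159 beside 88.3, 36.1 and 46.3 in corals 2, 7 and 75. In corals 40, 68 and 70 it was at 32.2, 187 and 57.1 beside 7.44, 33.0 and 26.3. With the pool 400 labels of corals 40 and 68 exchanged, 32.2 would stand beside 33.0, and that exchanged fragment would not be higher. Transposon Ty3-I Gag-Pol polyprotein (contig600070) was at 180.5, 34.0 and 226 in the fragments moved to pool 400, at 162 in the home fragment of coral 40, and below all of these in the other 8 libraries.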
